A study of Mus musculus with 4 samples.

Results

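The genes described here encode the machinery that shortens the poly(A) tail of messenger RNA, removes its cap and degrades it from the 5′ end, together with RNA-binding proteins that recruit this machinery. They were taken from the table by symbol, and all 38 were found among the 32592 genes listed. The set holds 11 subunits of the CCR4-NOT deadenylase, 4 BTG/TOB adaptors of that complex, the 2 subunits of PAN2-PAN3, 7 decapping and 5′-to-3′ decay factors, 3 repressors found in processing bodies (P-bodies), 7 LSM ring subunits and 4 RNA-binding proteins. In the libraries labelled Eif4a2 knockdown, 7 of the 36 genes with enough reads for a test fell and 1 rose, a share called of 22.2% beside 23.0% of all genes tested. The change furthest from 0 among the 36 was that of Dcp2, which encodes the decapping enzyme and fell 2.84-fold.

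All RNA came from CCE, a line of mouse embryonic stem cells of strain 129/Sv that was grown without feeder cells and with leukemia inhibitory factor, which holds such cells in self-renewal. The control group has 2 libraries from cells given control short hairpin RNAs (shLuc or shEV), and the other group has 2 libraries from cells given hairpins against Eif4a2 (sheIF4A2-2 or sheIF4A2-3). Which library received which hairpin is not stated. Both groups went through 3 days of selection in 1 µg/mL puromycin and were collected on day 4.5. Since separate cultures are not mentioned for the libraries of a group, the p-values below measure the spread between libraries, which may be technical.

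Most eukaryotic messenger RNAs are degraded in an ordered way. PAN2-PAN3 and then CCR4-NOT shorten the poly(A) tail, the LSM1-7 ring and PATL1 bind the shortened end, DCP2 with its cofactors removes the cap, and XRN1 digests the body from the 5′ end. DDX6, an RNA helicase, links CCR4-NOT to the decapping factors and is needed for P-bodies, the cytoplasmic granules in which repressed messenger RNAs collect. The protein made from the targeted gene, eIF4A2, is another helicase of the same broad family and has been described as a partner of CCR4-NOT.

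Depth ran from 4604200 to 13681765 recovered reads, with control 2 the shallowest library. The unit is the normalized count, a count per 1e6 reads of an effective library size. Eif4a2 itself stood at 753 and 814 in the knockdown-labelled libraries and at 531 and 379 in the controls, which goes against the label (log2 change 0.80, limma adjusted p = 0.014). "Rose" and "fell" therefore compare the labelled groups and do not refer to a measured loss of Eif4a2. All 10 embryonic stem cell markers were detected, summing to 8990 to 9341 normalized counts in the knockdown-labelled libraries and 11548 to 12057 in the controls. The 10 fibroblast markers summed to 106 to 107 against 64.7 to 66.5, with Lum and Dcn at 0 reads in all 4 libraries, and the 8 extraembryonic endoderm markers to 82.7 to 83.7 against 118 to 141. The last difference came from Lama1, without which that list summed to 41.6 to 43.4 against 34.4 to 42.1, and 5 of its 8 genes had log2 changes above 0. The part of these shifts in the results below was not tested, and in bulk RNA fewer cells of a type and less RNA per cell cannot be told apart.

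The first question was how many of the genes differed between the groups. Differences were tested with limma on log2(normalized count + 1) across the 14890 genes that passed a filter on low counts, and a gene was called where its Benjamini-Hochberg adjusted p was under 0.05. Of the 36 genes tested, 8 were called, or 22.2%, where 23.0% of all genes were called. The 7 that fell were 19.4% of the 36, beside 12.4% of all genes, and the 1 that rose was 2.78%, beside 10.5%. The median log2 change was -0.12 over the 36 genes and -0.01 over all genes. In 23 of the 36 genes (63.9%) the groups did not overlap, where 66.8% of all genes showed no overlap. The share called was thus close to the background, and what follows concerns single genes.

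Scaling by library size alone raised the median log2 change of all genes by 0.11, and under it 3 of the 36 genes rose and 4 fell. Rises then made up 68.4% of the 3148 calls over all genes, where they made up 45.8% of 3418 before. The median of the 36 was then 0.0058, beside 0.10 over all genes. Without the variance trend 2 rose and 3 fell, and 1932 of all 14890 genes were called. The number called also moved with single libraries, falling without either knockdown-labelled library and rising without either control. Calls over all genes moved in the same direction. Such fits leave 1 library in a group and take the spread from the other pair alone. In the authors' deposited table, 2 of the 38 genes were higher and 4 lower at an adjusted p under 0.05. Of these, 5 were also called here with the same sign. The share of all genes past that threshold in the authors' comparison was not counted, so these numbers have no background beside them.

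**Figure D1:**
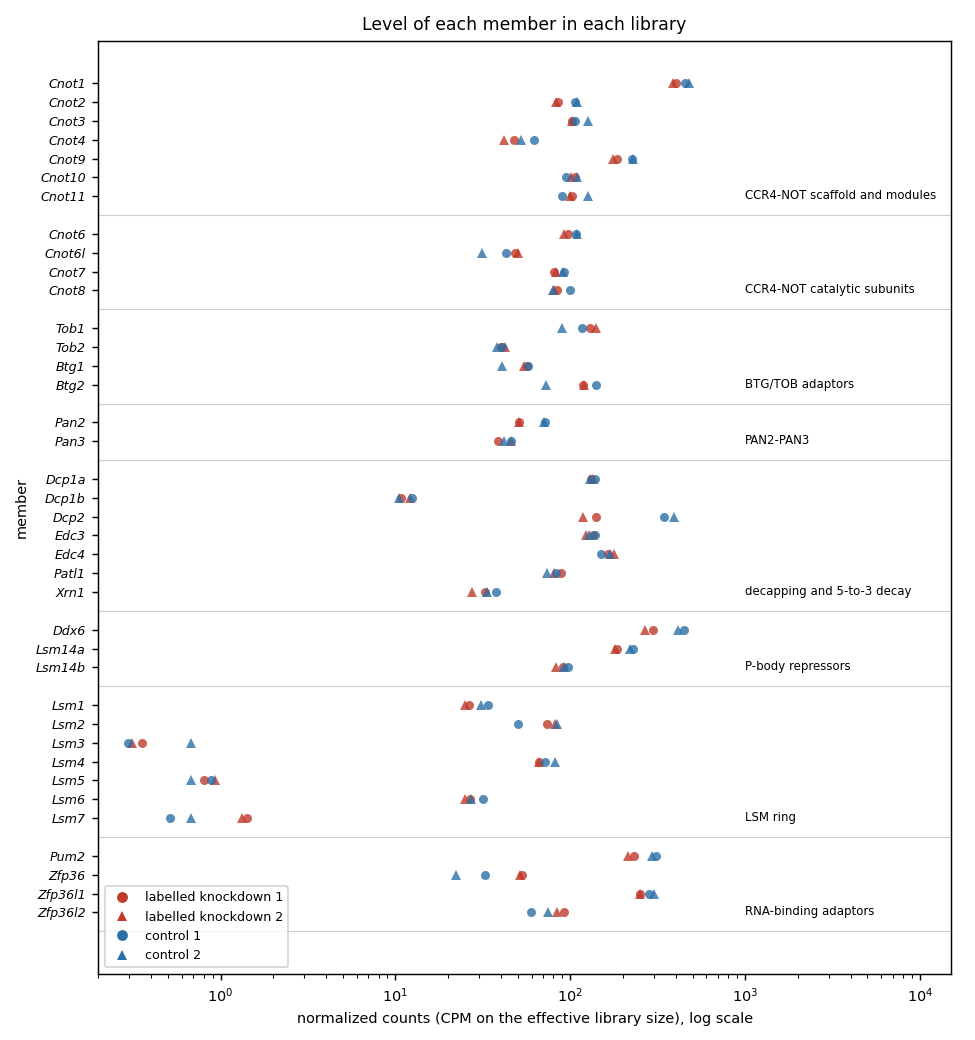
Normalized counts of the 38 genes in each of the 4 libraries, on a log axis, grouped by subcomplex. Points are single libraries of the labelled groups. Dcp2 shows a wide gap between the groups, at 139.6 and 118 against 343 and 391, and Lsm3, Lsm5 and Lsm7 lie far below the other genes.

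**Figure D2:**
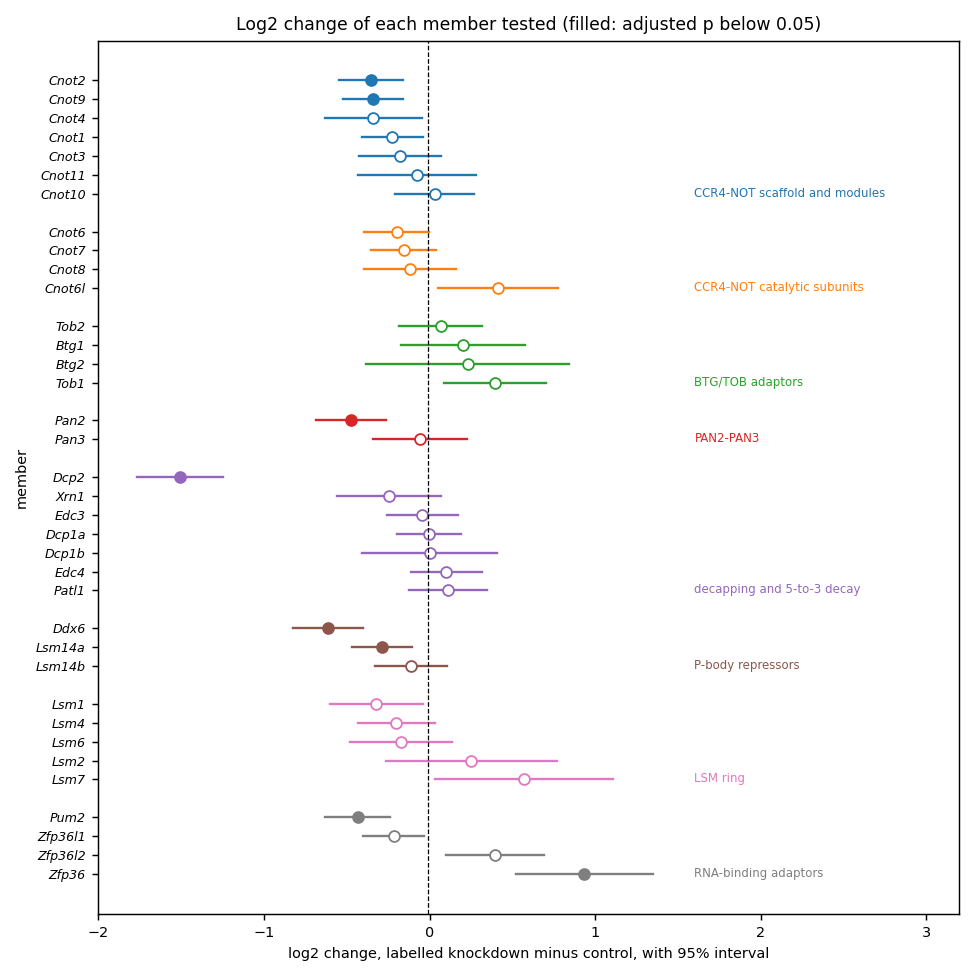
Log2 change of the 36 genes tested, knockdown-labelled libraries against controls, with 95% intervals from limma. Filled points passed an adjusted p under 0.05, open points did not, and the dashed line is the median of all genes tested (-0.01). Dcp2 lies at -1.51 and Zfp36 at 0.94.

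CCR4-NOT was the group with the most genes. Of the 7 scaffold and module subunits, 2 fell and 5 did not pass, and none of the 4 catalytic subunits passed. Of these 11 genes 18.2% were called, beside 23.0% of all genes. The median log2 change over these 11 genes was -0.18. Cnot1, which encodes the scaffold on which the other subunits assemble, had normalized counts of 404 and 388 in the knockdown-labelled libraries and 451 and 475 in the controls. Both controls were the higher libraries, but the difference did not pass (log2 change -0.22, SE 0.08, limma adjusted p = 0.0805).

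Cnot2 and Cnot9 were the subunits that fell. Cnot2 (ENSMUSG00000020166, GRCm38 chr10:116485161-116581511, minus strand) encodes a subunit that pairs with CNOT3. Its normalized counts were 84.6 and 82.7 in the knockdown-labelled libraries and 106 and 109 in the controls. The groups did not overlap, and Cnot2 fell 1.28-fold (83.7 ± 1.35 against 107 ± 2.02, SD, n = 2 each, log2 change -0.35, SE 0.08, limma adjusted p = 0.0257). The call was lost by library size alone (adjusted p = 0.08), with a correction for GC content (adjusted p = 0.0917), without a variance trend (adjusted p = 0.0823) and without knockdown-labelled library 1 (adjusted p = 0.203) or 2 (adjusted p = 0.301). Cnot2 shares 5.69% of its exon bases with 5330438D12Rik on the opposite strand, and the strand setting of the counting is unknown, so reads of such pairs cannot be told apart.

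Cnot9 (ENSMUSG00000026174, GRCm38 chr1:74506058-74530842, plus strand) encodes a subunit that binds CNOT1 and docks partner proteins such as the GW182 proteins of microRNA silencing. Its normalized counts were 184 and 175 against 226 and 229, again without overlap. It fell 1.27-fold (179 ± 6.41 against 227 ± 1.84, SD, n = 2 each, log2 change -0.34, SE 0.08, limma adjusted p = 0.0239). The call was lost by library size alone (adjusted p = 0.0753), without a variance trend (adjusted p = 0.0906), and without knockdown-labelled library 1 (adjusted p = 0.164) or 2 (adjusted p = 0.323). In the authors' deposited table its adjusted p was 0.176. Cnot9 shares 3.50% of its exon bases with Usp37 on the opposite strand.

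Cnot3 stood at 103 and 102 normalized counts against 106 and 127, a log2 change of -0.18. Cnot4, which encodes a ubiquitin ligase of the complex, stood at 47.6 and 41.9 against 61.9 and 52.0 (log2 change -0.34, limma adjusted p = 0.0882). In both genes the controls were the higher libraries. Cnot10 and Cnot11, whose proteins form a separate module on CNOT1, had log2 changes of 0.03 and -0.08, with overlapping groups. None of these 4 genes passed.

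The catalytic subunits come as 2 pairs of paralogs. CNOT6 and CNOT6L are nucleases of the CCR4 type and CNOT7 and CNOT8 of the CAF1 type, and a complex holds one of each type. Cnot6 had 97.1 and 92.2 normalized counts in the knockdown-labelled libraries and 108 and 109 in the controls (log2 change -0.20, limma adjusted p = 0.124). Cnot6l had 48.0 and 49.9 against 42.7 and 31.2 (log2 change 0.41, limma adjusted p = 0.0923). Neither passed, and their log2 changes had opposite signs.

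Within a pair, levels were compared per kilobase of exon, which allows for gene length and cancels the scaling of a library. The length covers all annotated exons of a gene together, not the transcript in use. Shares and ranks between genes therefore depend on the annotation. Cnot6 made up 75.9% and 74.2% of the signal per kilobase of Cnot6 and Cnot6l in the knockdown-labelled libraries and 79.8% and 84.5% in the controls. The groups did not overlap, with means of 75.1 ± 1.20% and 82.2 ± 3.32% (SD, n = 2 each). Such shares are given as a description, and no test was made of them. Cnot7 stood at 80.9 and 82.9 normalized counts against 91.6 and 91.0 (log2 change -0.16) and Cnot8 at 83.5 and 80.7 against 99.6 and 79.9 (log2 change -0.12), and neither passed. The share of Cnot7 in this pair was 30.5% and 31.7% against 29.4% and 34.0%, with overlapping groups.

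BTG and TOB proteins bind the CAF1-type nucleases, and TOB proteins also bind the poly(A)-binding protein. All 4 genes had log2 changes above 0, from 0.07 to 0.40, and none passed, where 23.0% of all genes were called. Tob1 had 129 and 141 normalized counts against 116 and 89.6 (log2 change 0.40, SE 0.13, limma adjusted p = 0.0673). It passed in 7 of 14 alternatives, namely by library size alone, after thinning the libraries to equal totals, without control 1, without control 2, with the replicate number as a block, and with the GC correction with or without that block. Several of these settings also moved the calls over all genes. By library size alone 68.4% of the calls were rises, and the block gave 4632 calls in place of 3418. More genes were also called without either control. Tob2 had 39.9 and 42.5 against 40.6 and 38.0, with overlapping groups (log2 change 0.07).

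Btg1 had 56.6 and 54.4 normalized counts against 57.0 and 40.5 (log2 change 0.20). Btg2, known as a growth-arrest gene that p53 induces, had 118 and 119 against 140.1 and 72.9. Both knockdown-labelled libraries thus lay between the controls, which differed by 0.93 on the log2 scale, more than the control pair of any other gene tested here. The log2 change of Btg2 was 0.23, and -0.23 without control 2. Tob1 made up 90.4% and 90.6% of the signal per kilobase of its pair against 89.3% and 87.3%, without overlap, and Btg1 19.9% and 19.1% of its pair against 17.5% and 22.4%, with overlap.

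PAN2 is the nuclease of PAN2-PAN3, and PAN3 tethers it to the poly(A)-binding protein. Pan2 (ENSMUSG00000005682, GRCm38 chr10:128303335-128321358, plus strand) had 50.7 and 51.2 normalized counts in the knockdown-labelled libraries and 71.5 and 70.8 in the controls. The libraries of each group were almost level, and the groups did not overlap. At 313 reads in control 2, counting error is larger than the spread seen between the controls, so that spread does not measure precision. Pan2 fell 1.39-fold (50.9 ± 0.328 against 71.1 ± 0.450, SD, n = 2 each, log2 change -0.47, SE 0.09, limma adjusted p = 0.0138). The call was lost without knockdown-labelled library 1 (adjusted p = 0.131) or 2 (adjusted p = 0.156). Pan3 had 38.6 and 45.6 against 45.7 and 41.9, with overlapping groups (log2 change -0.06, limma adjusted p = 0.76).

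Promoter windows of 250 bases before the start site were available from RefSeq (GRCm38.p6) for 31 of the 38 genes. Those of Pan2 and Cnot9, which fell, and of Zfp36, which rose (its values follow with the RNA-binding genes), are shown because these called genes have a single start in the table and hold a match to a motif searched. Capitals mark the matches, and each window is written 5′ to 3′ on the strand of its gene.
Pan2, chr10:128303085-128303334, plus strand: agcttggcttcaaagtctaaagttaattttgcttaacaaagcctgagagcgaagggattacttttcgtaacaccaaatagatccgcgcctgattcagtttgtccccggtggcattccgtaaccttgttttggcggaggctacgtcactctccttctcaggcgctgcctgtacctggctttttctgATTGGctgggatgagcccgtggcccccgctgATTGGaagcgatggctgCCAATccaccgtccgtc
Cnot9, chr1:74505810-74506059, plus strand: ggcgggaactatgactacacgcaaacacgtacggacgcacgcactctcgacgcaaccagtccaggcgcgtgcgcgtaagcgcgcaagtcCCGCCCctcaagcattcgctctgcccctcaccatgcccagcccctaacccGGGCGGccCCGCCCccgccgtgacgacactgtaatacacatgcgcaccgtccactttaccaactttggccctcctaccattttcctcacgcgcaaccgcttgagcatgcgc
Zfp36, chr7:28379229-28379478, minus strand: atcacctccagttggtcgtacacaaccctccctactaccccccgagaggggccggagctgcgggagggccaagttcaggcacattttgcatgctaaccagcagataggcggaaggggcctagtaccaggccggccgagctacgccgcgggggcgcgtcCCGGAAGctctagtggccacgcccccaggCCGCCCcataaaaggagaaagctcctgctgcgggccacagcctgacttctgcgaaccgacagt

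Both strands were searched for the GC box as GGGCGG, the CCAAT box by the letters of its name, the TATA box as TATAAA, the cAMP response element as TGACGTCA, the E-box as CACGTG, the ETS motif as CCGGAAG, and the serum response element. The window of Pan2 held 3 CCAAT boxes, that of Cnot9 3 GC boxes, and that of Zfp36 1 GC box and 1 ETS motif, and no matches overlapped. Counting a gene where any of its windows had a match, 23 of the 31 genes held a GC box, 12 a CCAAT box and 8 an ETS motif. Of all 32851 windows of this length, 32.7% held a GC box, 33.8% a CCAAT box and 6.91% an ETS motif. These shares count single windows, of tested genes or not, while a gene of the set could have several windows. The counts and the shares are therefore not directly comparable. A TATA box was in 3 genes (12.4% of windows), a cAMP response element in 2 (1.55%), an E-box in 1 (6.02%) and the serum response element in 0 (0.0609%). Of the 5 genes with a window that fell, 3 held a GC box, 1 a CCAAT box and 1 an ETS motif. These are matches of letters, not sites shown to be bound.

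The decapping group held the largest fall of the set. DCP2 is the hydrolase that cuts the cap, DCP1A and DCP1B are its activating partners, EDC3 and EDC4 are enhancers of decapping, PATL1 bridges the complex to the LSM ring, and XRN1 is the exonuclease that follows. Dcp2 (ENSMUSG00000024472, GRCm38 chr18:44380502-44424969, plus strand) had 139.6 and 118 normalized counts in the knockdown-labelled libraries and 343 and 391 in the controls. The groups were far apart, with each control more than 2-fold above each of the other libraries. Dcp2 fell 2.84-fold (129 ± 15.4 against 367 ± 34.0, SD, n = 2 each, log2 change -1.51, SE 0.11, 95% interval -1.77 to -1.25, limma adjusted p = 0.00256).

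Counted from the lowest log2 change, Dcp2 ranked 47 of the 14890 genes tested. It was the only gene of the 36 past the threshold with a change of at least 2-fold, and 1.38% of all genes fell by that much. It passed under all 14 alternatives, with log2 changes between -1.63 and -1.38 and a highest adjusted p of 0.0276. Its exons share no bases with another annotated gene.

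None of the partners of Dcp2 passed, where 23.0% of all genes were called. Dcp1a had 132 and 134 normalized counts against 138 and 129 (log2 change -0.00483, 95% interval -0.20 to 0.19), and Dcp1b 10.7 and 12.1 against 12.5 and 10.4 (95% interval -0.41 to 0.41). The groups overlapped in both. Dcp1a made up 90.4% and 89.5% of the signal per kilobase of the pair against 89.5% and 90.5%, again with overlap.

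Edc3 had 136 and 123 normalized counts against 139 and 128 (log2 change -0.04), with 22.1% of its exon bases shared with Clk3 on the opposite strand. Edc4 had 164 and 177 against 150.4 and 167 (log2 change 0.10), and Patl1 88.3 and 81.0 against 82.9 and 73.8 (log2 change 0.11). The groups overlapped in these 3 genes. Xrn1 had 32.4 and 27.3 against 37.7 and 33.3, with both controls the higher libraries, and did not pass (log2 change -0.24, SE 0.13, limma adjusted p = 0.22). The difference between Dcp2 and these genes was not tested.

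**Figure D3:**
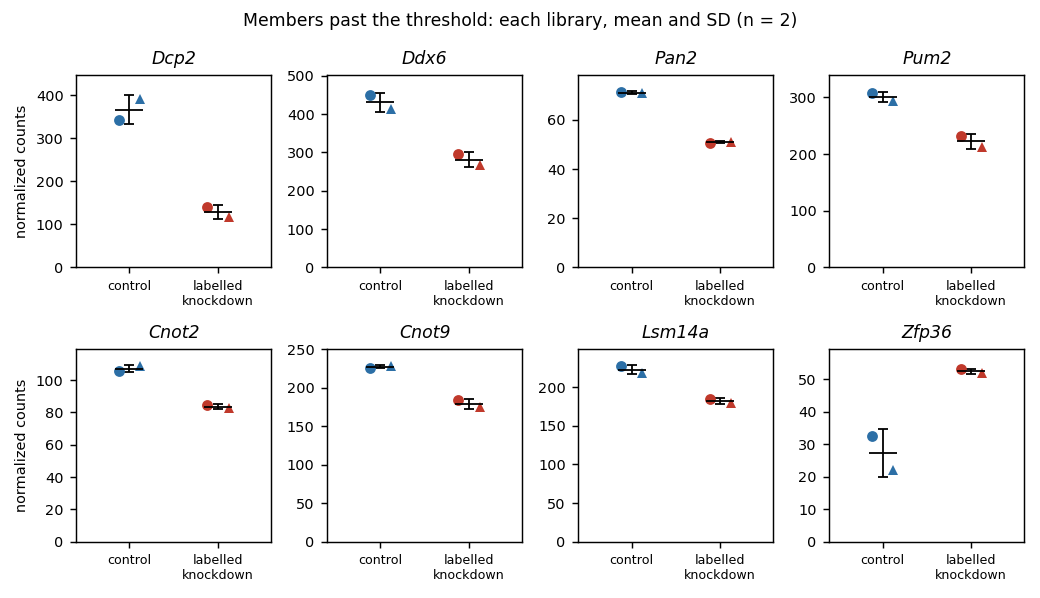
Normalized counts of the 8 called genes in each library, with the mean and SD of each group (n = 2), on axes that start at 0. Dcp2 stood at 367 ± 34.0 in the controls and 129 ± 15.4 in the knockdown-labelled libraries, and Zfp36 at 27.4 ± 7.37 and 52.4 ± 0.864.

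Ddx6, Lsm14a and Lsm14b encode P-body proteins that hold messenger RNAs in a repressed state, and LSM14 proteins bind DDX6 directly. Of these 3 genes 2 fell, and the groups did not overlap in any of the 3, where 23.0% of all genes were called and 66.8% showed no overlap. Ddx6 (ENSMUSG00000032097, GRCm38 chr9:44604892-44640731, plus strand) had 296 and 267 normalized counts in the knockdown-labelled libraries and 449 and 412 in the controls. It fell 1.53-fold (281 ± 20.2 against 430.4 ± 25.7, SD, n = 2 each, log2 change -0.61, SE 0.09, limma adjusted p = 0.00715). Ddx6 passed under 13 of 14 alternatives and not without knockdown-labelled library 2 (adjusted p = 0.0652).

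Lsm14a (ENSMUSG00000066568, GRCm38 chr7:34344646-34393315, minus strand) had 185 and 179 normalized counts against 227 and 218. It fell 1.22-fold (182 ± 4.38 against 223 ± 6.04, SD, n = 2 each, log2 change -0.29, SE 0.08, limma adjusted p = 0.0381), the smallest change among the 8 called genes. Its call held in 6 of 14 alternatives and was lost, among others, by library size alone (adjusted p = 0.164), with the GC correction (adjusted p = 0.0851) and without knockdown-labelled library 1 (adjusted p = 0.261) or 2 (adjusted p = 0.405). Lsm14b had 91.3 and 82.8 against 96.8 and 91.6 (log2 change -0.11, limma adjusted p = 0.4) and did not pass. Lsm14a made up 48.9% and 50.5% of the signal per kilobase of the pair against 52.5% and 52.9%, without overlap. Of the exon bases of Lsm14a, 5.61% are shared with Gm12764 on the opposite strand. In the authors' deposited table the adjusted p of Lsm14a was 0.312.

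The LSM1-7 ring binds the 3′ end of messenger RNAs whose tail has been shortened, and LSM1 is the subunit that sets it apart from the related nuclear ring. None of the 5 ring genes tested passed, where 23.0% of all genes were called. Lsm1 had 26.2 and 24.9 normalized counts against 33.6 and 30.8 (log2 change -0.32, SE 0.12, limma adjusted p = 0.0912). Lsm4 had 66.0 and 66.4 against 71.5 and 81.2 (log2 change -0.20), and Lsm6 26.8 and 24.9 against 31.6 and 27.2 (log2 change -0.17). In these 3 genes both controls were the higher libraries.

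Lsm2 had 73.6 and 81.8 normalized counts against 50.0 and 84.4, with control 1 far below the other 3 libraries (log2 change 0.25, SE 0.22). The remaining 3 ring genes had almost no reads. Lsm3 had 4 and 4 reads against 4 and 3 in the controls, Lsm5 9 and 12 against 12 and 3, and Lsm7 16 and 17 against 7 and 3. Lsm3 and Lsm5 did not pass the filter on low counts. Lsm7 did, with a log2 change of 0.57 on the log2(value + 1) scale, which understates changes of low genes (SE 0.23, limma adjusted p = 0.111). Its groups did not overlap, and it passed without a variance trend (adjusted p = 0.044) and without control 2 (adjusted p = 0.0393). In control 2 these 3 genes stood at 3 reads, which is 0.679 normalized counts there. Lsm3 shares 6.32% of its exon bases with AC161456.1 on the same strand. Since the annotation and strand setting of the counting are unknown, the levels of these 3 genes are uncertain.

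Per kilobase of exon, levels within the ring ran from 0.149 normalized counts for Lsm3 to 68.7 for Lsm4, as means over the 4 libraries. Over the whole set Zfp36l1 (90.7, with the overlap with Gm26669 described with its values) and Lsm4 (68.7) had the highest mean levels per kilobase, and both held these ranks in each group. The next ranks differed between the groups. In the knockdown-labelled libraries Tob1 (58.9), Cnot9 (46.9), Btg2 (43.3) and Ddx6 (35.0) followed, and in the controls Cnot9 (59.4), Ddx6 (53.6) and Tob1 (45.0). Apart from Lsm3, Lsm5 and Lsm7, the lowest in both groups were Xrn1 (1.76 over the 4 libraries) and Dcp1b (1.81).

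The RNA-binding group holds Pum2 and the 3 genes of the ZFP36 family. PUM2 binds the Pumilio element, written TGTANATA in DNA letters, and recruits CCR4-NOT to the messenger RNA. Pum2 (ENSMUSG00000020594, GRCm38 chr12:8674134-8752581, plus strand) had 232 and 213 normalized counts in the knockdown-labelled libraries and 308 and 295 in the controls, without overlap. It fell 1.35-fold (223 ± 13.2 against 301 ± 9.15, SD, n = 2 each, log2 change -0.43, SE 0.08, limma adjusted p = 0.0139). The call was lost without a variance trend (adjusted p = 0.0656) and without knockdown-labelled library 1 (adjusted p = 0.0654) or 2 (adjusted p = 0.211), and the adjusted p in the authors' deposited table was 0.0512.

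ZFP36 (tristetraprolin), ZFP36L1 and ZFP36L2 bind AU-rich elements in 3′ untranslated regions and recruit CCR4-NOT. Zfp36 (ENSMUSG00000044786, GRCm38 chr7:28376784-28380253, minus strand), also known as a gene that growth factors induce, had 53.0 and 51.8 normalized counts in the knockdown-labelled libraries and 32.6 and 22.2 in the controls. Both knockdown-labelled libraries were level and above both controls, which differed between themselves. Zfp36 rose 1.91-fold (52.4 ± 0.864 against 27.4 ± 7.37, SD, n = 2 each, log2 change 0.94, SE 0.18, limma adjusted p = 0.0136) and passed under all 14 alternatives. Its log2 change was 1.20 without control 1 and 0.67 without control 2. Zfp36 shares 3.60% of its exon bases with Gm44710 on the opposite strand.

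Zfp36l2 had 91.9 and 83.8 normalized counts against 59.4 and 74.4, without overlap, and did not pass in limma (log2 change 0.39, SE 0.13, limma adjusted p = 0.0607). It passed in the edgeR quasi-likelihood test on recovered reads, which called 25.3% of all genes, and in the authors' deposited table (adjusted p = 0.0327). Among other alternatives, it also passed by library size alone, with upper-quartile scaling and with the replicate number as a block. Zfp36l2 shares 2.97% of its exon bases with AC132455.1 on the opposite strand. Zfp36l1 had 251 and 249.95 against 282 and 302 (log2 change -0.22, limma adjusted p = 0.087). Of its exon bases 55.9% are shared with Gm26669 on the opposite strand, so its level is uncertain.

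Zfp36 made up 12.2% and 12.2% of the signal per kilobase of the family in the knockdown-labelled libraries and 7.80% and 4.98% in the controls. The share of Zfp36l1 was 67.1% and 68.4% against 78.2% and 78.6%, and that of Zfp36l2 20.8% and 19.4% against 13.97% and 16.4%. None of the 3 shares overlapped between the groups. Zfp36l1 had the largest share in each of the 4 libraries, and its mean share was lower in the knockdown-labelled libraries, at 67.7% against 78.4%.

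**Figure D4:**
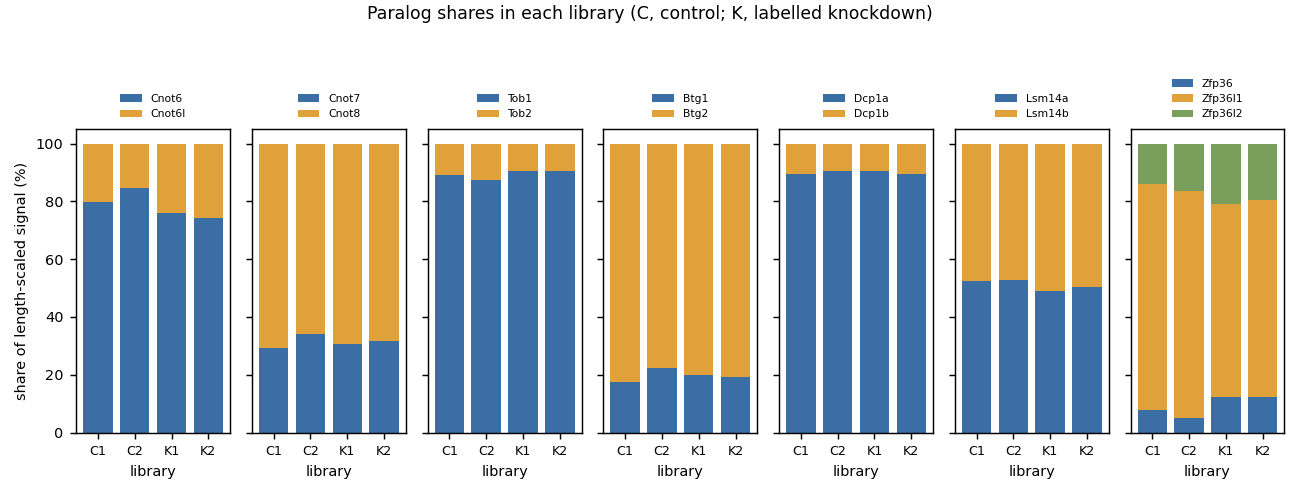
Share (%) of the signal per kilobase of exon taken by each paralog within its family, in each library. The ZFP36 family and the Cnot6, Tob1 and Lsm14a pairs differ between the groups without overlap, while the Cnot7, Btg1 and Dcp1a pairs overlap.

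The ZFP36 transcripts hold the letters that their own proteins are known to bind, and the sites are shown for that reason. The 3′ untranslated region was taken from the GENCODE M21 transcript with the longest coding part, and only its own strand was searched. The core AU-rich motif TATTTAT occurred 3 times in each of the 3 family genes. Among tested genes with a 3′ untranslated region of like length, 19.9% held it at least once for Zfp36 and 36.9% for each of the other two genes. The first site of each gene is shown on GRCm38 with the motif in capitals.
Zfp36, chr7:28376968-28376992, minus strand: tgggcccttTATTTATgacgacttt
Zfp36l1, chr12:80108424-80108448, minus strand: atcaaaacgTATTTATtgccaaact
Zfp36l2, chr17:84184916-84184940, minus strand: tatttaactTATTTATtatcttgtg

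The Pumilio element occurred in 5 of the 7 genes that fell (Cnot2, Dcp2, Ddx6, Lsm14a and Pum2) and in 10 of the 27 that did not pass and had a 3′ untranslated region. Over all tested genes 23.8% held it, but 3′ untranslated regions were longer in the genes that fell, with a median of 1988 bases against 951. At like length, 44.4% of genes held it for Pum2, 52.6% for Ddx6, 73.1% for Dcp2, 26.9% for Lsm14a and 21.6% for Cnot2. Both matches of Pum2 and the first of Ddx6 are shown, since PUM2 is known to bind this element, with the element in capitals. A match is a description and not a bound site.
Pum2, chr12:8750156-8750181, plus strand: ttatagagaTGTATATAgaattatag
Pum2, chr12:8750409-8750434, plus strand: gtacagaatTGTATATActtataatt
Ddx6, chr9:44637155-44637180, plus strand: catccacacTGTACATAcatgtattt

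Base composition moved with the log2 change over the whole table. Spearman's rho between the GC content of a gene's longest transcript and its log2 change was 0.27 over 14890 genes, which share their libraries and are not replicates, and 0.37 over the 36 genes. With all tested genes cut into 5 equal bins of GC content, 4 of the 10 genes of the set in the lowest bin fell (Dcp2, Ddx6, Pum2 and Cnot2, at 42.2% to 43.9% GC), where 576 of all 2978 genes in that bin fell. Zfp36, at 54.1% GC, was in bin 4, where 424 of 2978 genes rose. After each library was centred within 10 bins of GC content, Dcp2 (-1.38), Ddx6 (-0.49), Pan2 (-0.47), Pum2 (-0.31), Cnot9 (-0.32) and Zfp36 (0.81) still passed, with these log2 changes. Cnot2 and Lsm14a did not, and Cnot6l, Tob1 and Lsm4 passed in addition.

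**Figure D5:**
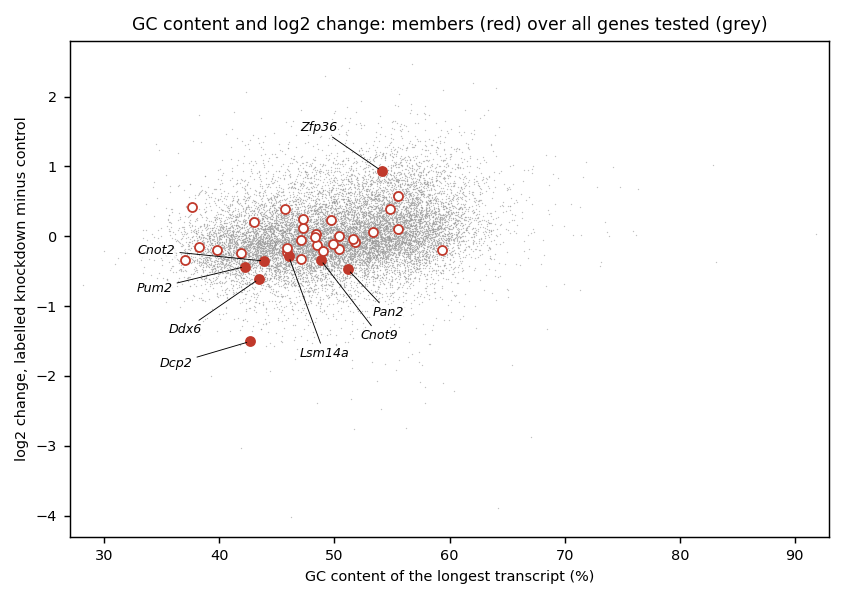
Log2 change against the GC content (%) of the longest transcript, for all 14890 genes tested and, marked apart, the 36 genes of the set. Dcp2, Ddx6, Pum2 and Cnot2 lie between 42.2% and 43.9% GC and Zfp36 at 54.1%.

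Genes of the same pathways outside the set were counted from 4 further lists. Of the 57 such genes tested, 3 rose and 10 fell (22.8% called, where 23.0% of all genes were called), with a median log2 change of -0.14. The number called among them fell without either knockdown-labelled library and rose without either control, as did the number over all genes. Of 15 genes of the exosome and its SKI partner, which degrade RNA from the 3′ end, 2 fell (13.3%, beside 12.4% of all genes). Exosc9 fell 1.59-fold (66.8 ± 3.90 against 107 ± 7.05 normalized counts, SD, n = 2 each, limma adjusted p = 0.00676) and Exosc2 1.44-fold (limma adjusted p = 0.014). Both encode core subunits of the exosome.

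Of 11 poly(A)-binding genes and other deadenylases, 1 fell (9.09%, beside 12.4% of all genes). It was Paip2b, which encodes an inhibitor of the poly(A)-binding protein and fell 1.51-fold (limma adjusted p = 0.00995). Of 12 other genes of decapping and uridylation, 1 rose and 1 fell (8.33% each, where 10.5% of all genes rose and 12.4% fell). Tut4, which encodes a terminal uridylyltransferase, rose 1.36-fold (limma adjusted p = 0.023), and Pnrc2, which encodes a decapping cofactor, fell 1.36-fold (limma adjusted p = 0.0206).

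Of 19 other RNA-binding regulators of decay, 2 rose (10.5%), 6 fell (31.6%) and 11 did not pass, where 10.5% of all genes rose and 12.4% fell. Rc3h1, which encodes the stem-loop binding protein roquin, fell 1.42-fold (51.3 ± 0.352 against 73.4 ± 2.04 normalized counts, SD, n = 2 each). Ythdf1, which encodes a reader of methylated adenosine in messenger RNA, fell 1.34-fold, and Cpeb3 fell 1.96-fold. Cpeb1, which encodes a regulator of cytoplasmic polyadenylation, rose 2.14-fold on the log2(value + 1) scale (9.36 ± 1.19 against 3.84 ± 0.646, SD, n = 2 each). The limma adjusted p was 0.0118 for Rc3h1 and 0.0118 for Cpeb3, and it was 0.0132 for Cpeb1 and 0.0163 for Ythdf1.

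Zfp36 and Btg2 belong to the genes that growth factors switch on within a short time. Of 16 other immediate early genes tested, 5 rose (31.2%), 3 fell (18.8%) and 8 did not pass, where 10.5% of all genes rose and 12.4% fell. Jund rose 1.87-fold (369 ± 21.3 against 198 ± 32.7 normalized counts, SD, n = 2 each, limma adjusted p = 0.00571) and Ier5 2.92-fold (limma adjusted p = 0.00575). Egr1 fell 3.50-fold (15.8 ± 2.05 against 59.0 ± 18.9, SD, n = 2 each, limma adjusted p = 0.00441) and Klf6 1.61-fold (limma adjusted p = 0.00761). The called genes of this list thus went in both directions.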

How the data were processed

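Poly(A) RNA of CCE cells was sequenced in 4 libraries, 2 per labelled group. The submitters' processing notes list Bowtie2 2.3.4.3, SAMtools 1.9, HTSeq 0.11.2, edgeR 3.26.8 and mm9 without roles. Annotation and strand setting were not given in the sources used here. In the table, the deposited signal values behave as gene counts over an effective library size: 100% of each library's values were whole multiples of 1 read, within 0.001. Per the file headers, the authors' own comparison holds log2 fold changes, log2 CPM averages, likelihood ratio scores and p-values, raw and adjusted.

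log2(signal + 1) was fitted with limma 3.58.1 (R 4.3.3, variance trend, no covariates) for the 14890 of 32592 genes that filterByExpr of edgeR 4.0.16 kept on recovered reads. Tests were two-sided, with Benjamini-Hochberg adjustment over all genes at 0.05. The fit was also run on simulated counts with dispersions taken from these libraries, which cannot show whether the spread between libraries is technical. Alternatives changed the pseudocount, filter, scaling, variance trend, depth, GC content, block or libraries, or used edgeR's quasi-likelihood test. GC content, exon lengths, overlaps and coordinates are from GENCODE M21 on GRCm38 (32590 genes matched by ID), not the submitters' mm9, and none was converted. Floors of 3 reads cover counting error only. Libraries of a group differed beyond counting noise (chi-square per degree of freedom 1.95 and 12.8), so none was merged.

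The genes, lists and tests were chosen with earlier results of these data known. By the naming rule, each gene of the set is accounted for, and each further list names up to 4 called genes with the smallest p.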

Additional observations from a re-analysis of the deposited data

How the results depend on the processing

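The 8 called genes kept sign and call in 88 of 112 alternatives, lost the call in 24 and reversed in 0. Over all 14890 genes tested, 3418 were called in the main fit, 3148 by library size alone and 1932 without the variance trend. That number was 3306 with upper-quartile scaling, 3764 in edgeR and 3110 with the GC correction. It was 2812 after thinning, with the filter applied anew. Genes that rose (1) numbered 3 by library size alone, 2 with upper-quartile scaling, edgeR, no variance trend or thinning, 3 with the GC correction, and 1 to 7 with 1 library left out. Genes that fell (7) numbered 4 by library size alone, 3 without the trend, and 1 to 16 with 1 library left out. The median log2 change (-0.12) was 0.0058 by library size alone, -0.078 with upper-quartile scaling and -0.060 with the GC correction, with or without the block. The other decay genes that rose (3) numbered 5 and those that fell (10) numbered 6 by library size alone, 4 fell without the trend, and leaving out 1 library gave 0 to 6 and 0 to 25. Fits with 1 library left out take the spread from the other pair alone. Under them the calls over all genes also became fewer without a knockdown-labelled library and more without a control.

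The labels give a replicate number but do not say whether same-numbered libraries are paired. The correlation of their deviations from the group means was 0.04. With 2 libraries per group these deviations mirror each other, so this correlation cannot decide the question. With the replicate number as a block, 4 genes rose, or 5 with the GC correction too, and 12 were called in place of 8. Over all 14890 genes tested, the block alone gave 4632 calls in place of 3418.

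Signs turned only among genes that were not called. Library size alone raised the log2 change of each of the 36 genes by 0.07 to 0.12 (all genes: median 0.11), which by itself turned those just below 0: it was then 0.047 for Cnot11, 0.0038 for Cnot8, 0.063 for Pan3, 0.12 for Dcp1a, 0.079 for Edc3 and 0.0077 for Lsm14b. With the GC correction, with or without the block, it was 0.0075 for Pan3, 0.061 for Dcp1a and -0.020 for Edc4. It was 0.034 for Dcp1a with upper-quartile scaling, -0.091 for Tob2 and 0.021 for Dcp1a after thinning, and -0.033 for Dcp1b in edgeR. With 1 library left out it ran from -0.075 to 0.14 for Cnot10, -0.32 to 0.17 for Cnot11, -0.28 to 0.039 for Cnot8, -0.037 to 0.44 for Btg1, -0.23 to 0.70 for Btg2, -0.18 to 0.060 for Pan3, -0.053 to 0.043 for Dcp1a, -0.12 to 0.12 for Dcp1b, -0.11 to 0.025 for Edc3 and -0.12 to 0.62 for Lsm2. Apart from library size, the cause was not tested. At 4604200 reads, control 2 limits what can be seen of Lsm3, Lsm5 and Lsm7. In control 1, the deepest library at 13681765 reads, these genes also had only 4, 12 and 7 reads. Why their reads were so few was not tested.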
